A study of Mus musculus with 4 samples.

Results

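The Iroquois homeobox genes Irx1 to Irx6 were examined in day 5 cardiac progenitor cells with and without Isl1. The members were the 6 genes of the 20701 in the deposited transcript table that carry one of these symbols, each represented by the transcript entry with the highest summed count. Irx genes encode transcription factors with a homeodomain of the TALE class, a DNA-binding domain with an extended loop that Meis, Pbx and Tgif proteins share. Mammals have them as a pair of clusters of 3 genes. In the heart they are known for patterning of the chambers and for the conduction system: Irx4 marks ventricular myocardium, Irx3 acts in the fast ventricular conduction system, and Irx5 sets the repolarisation gradient across the ventricular wall.

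RNA-Seq was performed on 4 libraries, 2 from control and 2 from Isl1_KO cells, made from poly(A) RNA with strand-specific chemistry. Control cells were E14 mouse ES cells with an Nkx2-5-EmGFP transgene, and Isl1_KO cells were Isl1-/- derivatives of that line, made with CRISPR/Cas9 and a pair of guide RNAs and grown from single picked clones. This follows the titles and the study's methods; the design text of the series speaks instead of a knockdown with short hairpin constructs, and the titles were followed. Both carried the reporter, were differentiated to cardiac progenitors and were sorted for GFP at day 5. The sort selected for cells with an active Nkx2-5 transgene, and its purity was not assessed here. According to the methods, each genotype was represented by different clones. The edgeR p-values rest on a spread per gene that is taken from both groups together, although the groups differed in spread, as given below.

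The control libraries held 8821517 and 9147425 counts, the Isl1_KO libraries were deeper with 13186109 and 11388333, and a floor of 3 counts lay between 0.231 and 0.341 CPM (counts scaled to a common library size). The targeted gene Isl1 was read 309 and 326 times in control and 17 and 24 times in Isl1_KO libraries, which is 4.79% of the control level (log2 fold change -4.39, SE 0.212, edgeR adjusted p = 0.00277). Control libraries were much more alike than Isl1_KO libraries, with a biological coefficient of variation of 1.26% against 16.3%. Of the 12 cardiac progenitor markers, 11 were tested and 7 fell in edgeR (1.94% of all tested genes fell): Isl1, Mef2c, Tnnt2, Tbx5, Nkx2-5, Hand2 and Gata6. DESeq2 also called Tbx20 and Pdgfra lower (adjusted p = 0.0266 and 0.00149). The 12 markers summed to 1590 CPM in both control libraries and 796 and 784 in Isl1_KO libraries, and Nkx2-5, whose transgene was the basis of the sort, kept 4.77 and 4.34 of 21.1 and 19.8 CPM. Markers of other cell types were low only in part. Olig2 (motor neuron progenitors) and Myf5 (skeletal myoblasts) had no count in any library. Other neural markers were read, with Sox2 at 21.3 and 21.7 CPM in control. In control libraries endothelial markers summed to 191 CPM in both, and blood markers to 515 and 527. The 9 paraxial mesoderm markers added up to 6.42 to 13.3 CPM. The 9 endoderm markers reached 86.0 to 95.1 CPM and the 7 pluripotency markers 64.9 to 111 CPM, without an edgeR call in any of the last 3 lists. At an unadjusted edgeR p under 0.05 there were 1, 2 and 0 genes in these lists, and DESeq2 called Foxc2 lower (adjusted p = 0.0457) and Cxcr4 higher (adjusted p = 0.00271). The 2 most abundant markers of each, as log2 fold changes, were Foxc2 (-1.28) and Tbx6 (0.20) for paraxial mesoderm, Cxcr4 (1.22) and Ttr (-0.60) for endoderm, and Klf4 (-0.47) and Tdgf1 (-1.75) for pluripotency, with edgeR adjusted p between 0.0829 and 0.808.

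The 6 genes lie in 2 clusters, which is the arrangement the results below follow. On build NCBIM37 (mm9), with GENCODE vM1 annotation, Irx1 (positions 72095680 to 72101171, minus strand), Irx2 (72766245 to 72771644, plus strand) and Irx4 (73397945 to 73407068, plus strand) span 1311 kb of chromosome 13. Irx3 (94322428 to 94325553, minus strand), Irx5 (94881695 to 94885351, plus strand) and Irx6 (95198188 to 95204855, plus strand) span 882 kb of chromosome 8. The gaps between neighbouring members are 665 and 626 kb in the first cluster and 556 and 313 kb in the second.

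The members are close paralogues, and a stretch of their homeobox is printed to show how little separates them. Each line gives 39 coding bases in the sense direction, read from the NCBIM37 genome, that encode 13 residues starting at the invariant tryptophan of the third, DNA-contacting helix. Capitals mark a base that differs from the most common base of the 6 genes.
Irx1 (chr13:72097443-72097481, - strand): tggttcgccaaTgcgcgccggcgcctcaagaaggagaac
Irx2 (chr13:72768259-72768297, + strand): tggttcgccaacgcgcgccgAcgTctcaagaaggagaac
Irx3 (chr8:94324398-94324436, - strand): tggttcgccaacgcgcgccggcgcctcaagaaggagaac
Irx4 (chr13:73405118-73405156, + strand): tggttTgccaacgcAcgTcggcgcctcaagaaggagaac
Irx5 (chr8:94883673-94883711, + strand): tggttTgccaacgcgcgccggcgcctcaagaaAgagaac
Irx6 (chr8:95201282-95201320, + strand): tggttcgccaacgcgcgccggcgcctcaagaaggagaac
Irx3 and Irx6, from the same cluster, had no capital in this stretch, whereas Irx4 had 3. Over 63 homeodomain residues, Irx2 and Irx5 were identical (63 of 63) although they lie on different chromosomes. Irx1 and Irx3, also from different clusters, shared 62 residues. Irx4 and Irx6 shared 58, and so did Irx1 and Irx6. The least alike pairs, Irx2 with Irx6 and Irx5 with Irx6, shared 54. The longest identical runs between 2 transcripts were 88 bases for Irx3 and Irx6, 65 for Irx2 and Irx5 and 50 for Irx3 and Irx5, and all other pairs shared runs of 23 to 41 bases. Reads that fall inside such a run could have been assigned to either gene or dropped, and the read length was not given in the sources used here.

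In control progenitors Irx3 was the main Iroquois transcript per length. Its deposited RPKM (reads per kilobase of transcript, scaled to library total) was 7.22 and 6.91, followed by Irx1 with 3.33 and 2.4, Irx2 with 2.25 and 2.27, Irx5 with 1.76 and 1.72, Irx4 with 0.3 and 0.24, and Irx6 with 0.02 and 0.04. Irx3 stood above all other members in both control libraries, and Irx1 lay above Irx2 in both, but in one of them by less than the distance between the Irx1 replicates. Against all tested genes, the mean control level of Irx3 was at the 53.3 percentile, Irx1 at the 31.9, Irx2 at the 27.5, Irx5 at the 23.6 and Irx4 at the 4.0. Irx6 was read 1 and 2 times in control libraries and not at all in Isl1_KO libraries, so that all 4 values were under the floor of 3 counts. It was not tested, and a difference was not detectable at this depth.

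Both Isl1_KO libraries lay below both control libraries for Irx1, Irx2, Irx3, Irx4 and Irx5, a pattern that held for 29.0% of all tested genes. Irx2 was the member that passed the edgeR test; 1.94% of the 12715 tested genes fell by the same criterion. Irx4 met the filter on low counts only in its control libraries, and Irx5 in these and in Isl1_KO replicate 1. A gene as low in both Isl1_KO libraries as Irx4 is tested only where control is higher, so its direction is no separate result. Irx5 also needed a control library to enter. In bulk RNA, fewer cells of a type and less RNA per cell cannot be told apart.

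**Figure D1:**
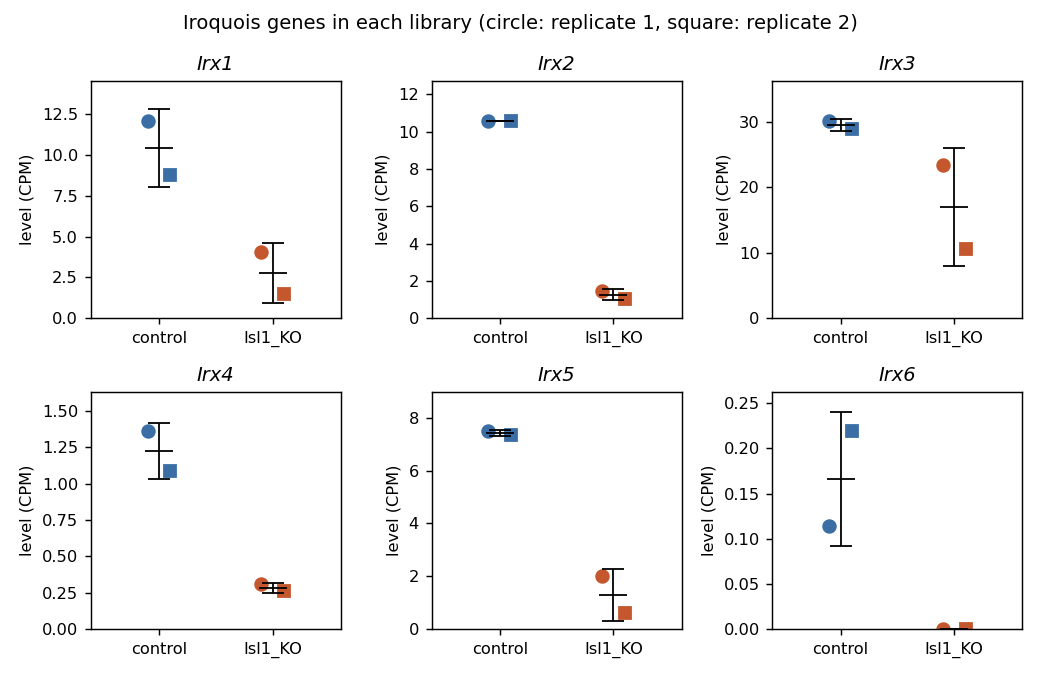
Levels of the 6 Iroquois genes in CPM in each library, 1 panel a gene with its own axis from 0. Circles are replicate 1 and squares replicate 2, and bars give the mean and SD of 2 libraries. Irx2 falls from 10.6 in both control libraries to 1.46 and 1.04, the Isl1_KO libraries of Irx3 are far apart at 23.4 and 10.6, and Irx6 stays under the floor of 3 counts in every library.

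Irx2, which in the heart is expressed in the developing septum and conduction system, was read 93 and 97 times in control and 19 and 12 times in Isl1_KO libraries. In CPM it was 10.6 and 10.6 against 1.46 and 1.04, a mean of 10.6 ± 0.0402 (SD, n = 2) against 1.25 ± 0.297 (SD, n = 2). The Isl1_KO libraries thus kept 11.8% of the control level, and the gap between the groups was far wider than that between the libraries of either group. On the log2 scale this was a change of -3.06 (SE 0.242, edgeR adjusted p = 0.00902), and 0.64% of the tested genes had a fold change as low or lower. DESeq2 gave an adjusted p of 6.42e-09. The call needed both control libraries: without control replicate 1 the edgeR adjusted p was 0.146 and without control replicate 2 it was 0.125, at log2 fold changes of -3.07 and -3.06.

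Irx1, the neighbour of Irx2 and likewise known from the septal myocardium, was more variable. Its CPM were 12.1 and 8.75 in control and 4.07 and 1.47 in Isl1_KO libraries, from 107, 80, 53 and 17 counts. The means were 10.5 ± 2.4 and 2.77 ± 1.84 (SD, n = 2 each), so that 26.5% of the control level was measured, but the log2 fold change of -1.89 (SE 0.458) did not pass the edgeR test (adjusted p = 0.105). DESeq2, by which 3.18% of 13587 genes with an adjusted p fell, placed Irx1 past the threshold (adjusted p = 0.00969).

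Irx4, a regulator of the ventricular myosin programme, was rare at this stage. It was read 12 and 10 times in control and 4 and 3 times in Isl1_KO libraries, that is 1.36 and 1.09 against 0.307 and 0.26 CPM, with the Isl1_KO values close to the floor. The summed counts of 7 against 22 correspond to a depth-scaled ratio of 0.233, with an exact 95% interval of 0.084 to 0.564 that covers counting error only. The edgeR log2 fold change of -2.06 (SE 0.455) had an adjusted p of 0.0892, and in DESeq2 the adjusted p was 0.414.

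On chromosome 8, Irx5 was read 66 and 67 times in control and 26 and 7 times in Isl1_KO libraries. Its CPM of 7.49 and 7.33 stood against 2.0 and 0.607, so that control replicates were nearly equal while those of Isl1_KO differed 3.29-fold. The means were 7.41 ± 0.114 and 1.3 ± 0.984 (SD, n = 2 each), which is 17.6% of control. The log2 fold change of -2.47 (SE 0.467) had an adjusted p of 0.0705 in edgeR and of 0.00149 in DESeq2. The call of this gene therefore depended on the test. Its direction was given beforehand, as both tests used the same counts, with both Isl1_KO libraries below both control libraries.

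Irx3, the most abundant member, had the smallest fold change. The counts were 266 and 264 in control and 304 and 122 in Isl1_KO libraries, or 30.2 and 28.9 against 23.4 and 10.6 CPM. Isl1_KO replicate 1 retained most of the control level, with a log2 ratio of -0.34 to the control mean, whereas replicate 2 was at -1.48. The difference between 29.5 ± 0.925 and 17.0 ± 9.04 (SD, n = 2 each) did not pass (log2 fold change -0.79, SE 0.357, edgeR adjusted p = 0.262, DESeq2 adjusted p = 0.24). By the study's own criteria, a change over 1.5-fold with an unadjusted p under 0.05 in DESeq2, Irx3 was counted as lower together with Irx1, Irx2 and Irx5, and so were 4.57% of the 16855 genes with a count.

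**Figure D2:**
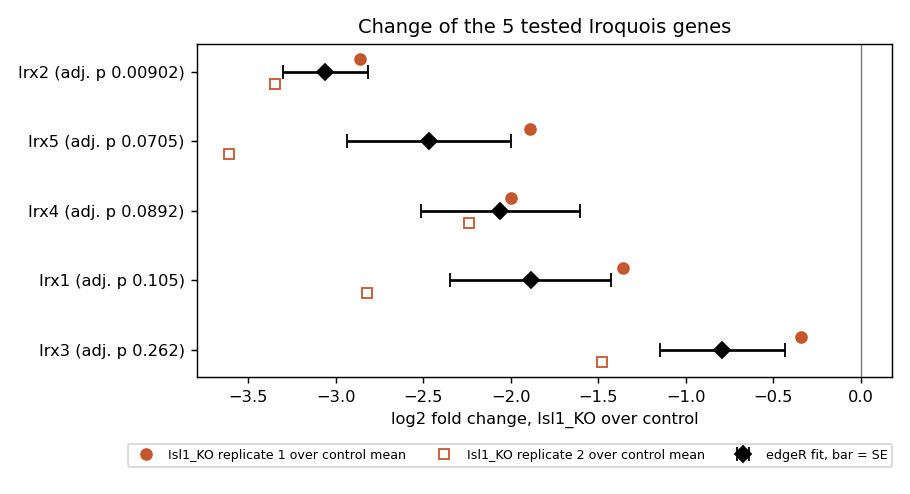
Fold change of the 5 tested Iroquois genes on the log2 scale, Isl1_KO over control. Diamonds with bars are the edgeR estimate and its SE, circles and squares the 2 Isl1_KO libraries over the control mean, with edgeR adjusted p beside each name. The estimates run from -3.06 for Irx2 to -0.79 for Irx3, and Isl1_KO replicate 2 lies below replicate 1 for every gene.

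The Isl1_KO libraries differed from each other in the same order for every tested member, with replicate 2 below replicate 1. The ratio of replicate 1 to replicate 2 was 3.29 for Irx5, 2.76 for Irx1, 2.21 for Irx3, 1.4 for Irx2 and 1.18 for Irx4. That of Irx4 came from 4 and 3 counts, too few to tell an order. Over the 12690 tested genes with a count in replicate 2, a ratio above 2 was found in 468 (3.69%). Replicate 2 was more than 2-fold above replicate 1 in 247, and the median ratio was 0.992. Between the control libraries a ratio above 2 was found in 0.409%. Endothelial markers showed the same order: 7 of 8 were lower in Isl1_KO replicate 2 than in replicate 1, with Emcn at 0 in both. Their sum was 182 and 119 CPM, against 191 in both control libraries. Other lists were mixed. Genes higher and lower in replicate 2 numbered 5 and 7 for cardiac progenitor markers, 4 and 4 for ventricular and 6 and 3 for atrial genes. The numbers were 7 and 3 for neural markers, 6 and 1 for pluripotency markers, and 2 and 6 for genes known to depend on Irx factors. No endothelial gene passed edgeR (Pecam1 0.26, Tek -1.18 on the log2 scale, adjusted p = 0.348 and 0.132), 4 had an unadjusted p under 0.05, and DESeq2 called 2 lower, the vascular receptor gene Tek (adjusted p = 0.00602) and Emcn (15 and 10 against 0 and 0 counts, adjusted p = 0.0143). With no count in the Isl1_KO libraries, Emcn entered the tests only through its control libraries, so that it could only be called lower. Blood markers were divided. The globins Hbb-bh1 and Hba-x summed to 382 and 391 CPM in control and 201 and 45.6 in Isl1_KO libraries, whereas the other 6 summed to 132 and 136 against 200 and 239. Of 7 tested blood genes, Runx1, a haematopoietic factor, rose in edgeR (70.4 and 71.9 against 102 and 110 CPM, adjusted p = 0.0335), and DESeq2 called Runx1 and Tal1 higher. The part of these markers in the Irx values was not tested. The summed level of 12 neural markers, a tissue that also uses Irx genes, was 44.4 and 44.9 CPM in Isl1_KO and 59.9 and 59.6 in control libraries, with 3 to 5 of the 12 at 0, and none of the 4 tested neural genes was called by edgeR or DESeq2 (1 had an unadjusted edgeR p under 0.05). The most abundant of them were Sox2 (21.3, 21.7, 15.5 and 26.7 CPM, log2 fold change -0.03, edgeR adjusted p = 0.958) and Tubb3 (31.0, 30.4, 25.5 and 12.7 CPM, -0.68, edgeR adjusted p = 0.28).

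With unequal folds, the composition of Iroquois RNA shifted to Irx3. The summed RPKM of the 6 genes was 14.9 and 13.6 in control and 7.54 and 3.49 in Isl1_KO libraries. Irx3 made up 48.5% and 50.9% of this sum in control libraries and 74.0% and 75.4% in Isl1_KO libraries. The share of Irx2 went from 15.1% and 16.7% to 4.1% and 6.6%, and that of Irx5 from 11.8% and 12.7% to 6.2% and 4.3%.

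By cluster, the chromosome 13 genes summed to 5.88 and 4.91 RPKM in control and 1.49 and 0.71 in Isl1_KO libraries. The chromosome 8 genes summed to 9.0 and 8.67 RPKM and to 6.05 and 2.78, and most of what was left there was Irx3. Both clusters therefore held lower sums in the Isl1_KO libraries, and in neither did the groups overlap. A ratio between members is free of library size: Irx2 over Irx3, scaled by length, was 0.312 and 0.328 in control and 0.0558 and 0.0878 in Isl1_KO libraries, and Irx5 over Irx3 was 0.244 and 0.249 against 0.0841 and 0.0564. Irx1 over Irx3 was 0.461 and 0.347 against 0.2 and 0.16. Irx4 over Irx3, from few Irx4 counts, was 0.041 and 0.0344 against 0.012 and 0.0224. None of these ratios overlapped between the groups, and each had a two-sided exact permutation p of 0.333, the smallest that 2 against 2 libraries allow. All have Irx3 as divisor and are not separate observations. Among single tested genes, 29.0% had both Isl1_KO libraries below both control libraries, and no such share was computed for sums or ratios.

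**Figure D3:**
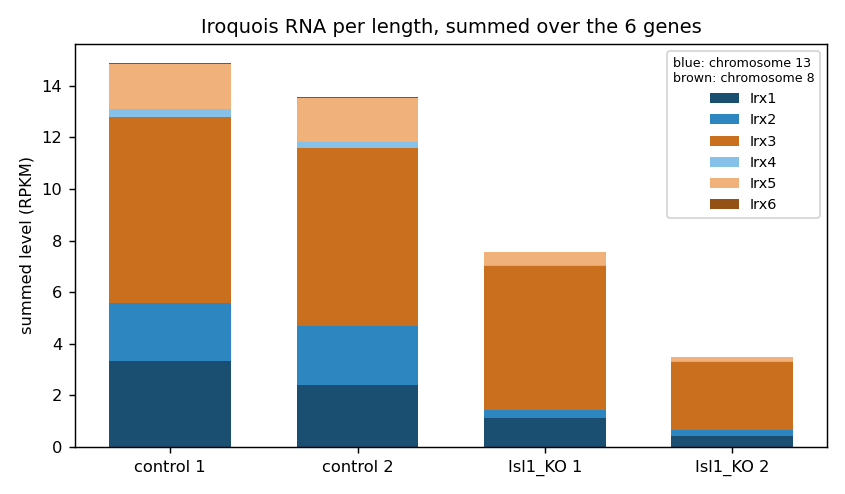
Summed RPKM of the Iroquois genes in each library, stacked by gene, with blue for the chromosome 13 cluster and brown for the chromosome 8 cluster. The bars go from 14.9 and 13.6 in control to 7.54 and 3.49 in Isl1_KO, and the Irx3 segment makes up 74.0% and 75.4% of the Isl1_KO bars.

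The clusters lie in gene-poor intervals, and no other gene placed from the table starts between the members. Of 65 genes with a start within 2 Mb of a cluster, 42 were tested, and 1 fell and 1 rose. Over all 12715 tested genes, 311 were called and 247 of them fell (1.94% of those tested). Calls this few near the clusters cannot be set apart from the share over all genes. Gnao1, which encodes a G protein alpha subunit and starts 1129 kb above the chromosome 8 cluster, was read 276 and 292 times in control and 184 and 151 times in Isl1_KO libraries (log2 fold change -1.21, edgeR adjusted p = 0.0144). Trip13, a mitotic checkpoint ATPase gene 668 kb above the chromosome 13 cluster, was higher, with 608 and 666 against 1261 and 1221 counts (0.52, edgeR adjusted p = 0.0474). The median log2 fold change was 0.06 over the 20 tested neighbours on chromosome 13 and -0.25 over the 22 on chromosome 8, beside -0.003 over all genes.

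The genes next to the clusters did not pass the test. On chromosome 8, Fto and Rpgrip1l, whose starts lie 485 kb below the cluster and whose region is known to hold long-range enhancers of Irx3 and Irx5, had log2 fold changes of -0.20 and -0.33 (edgeR adjusted p = 0.185 and 0.159). Mmp2, a matrix metalloproteinase gene 146 kb above it, was read 2428 and 2512 times in control and 3740 and 1809 times in Isl1_KO libraries (-0.31, edgeR adjusted p = 0.543), with Isl1_KO libraries on both sides of control. On chromosome 13, Ndufs6, a subunit of respiratory complex I 59 kb above Irx4, was at 0.26 (edgeR adjusted p = 0.327). Below Irx1 no gene within the window was tested, and Adamts16 had 1, 1, 4 and 9 counts.

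**Figure D4:**
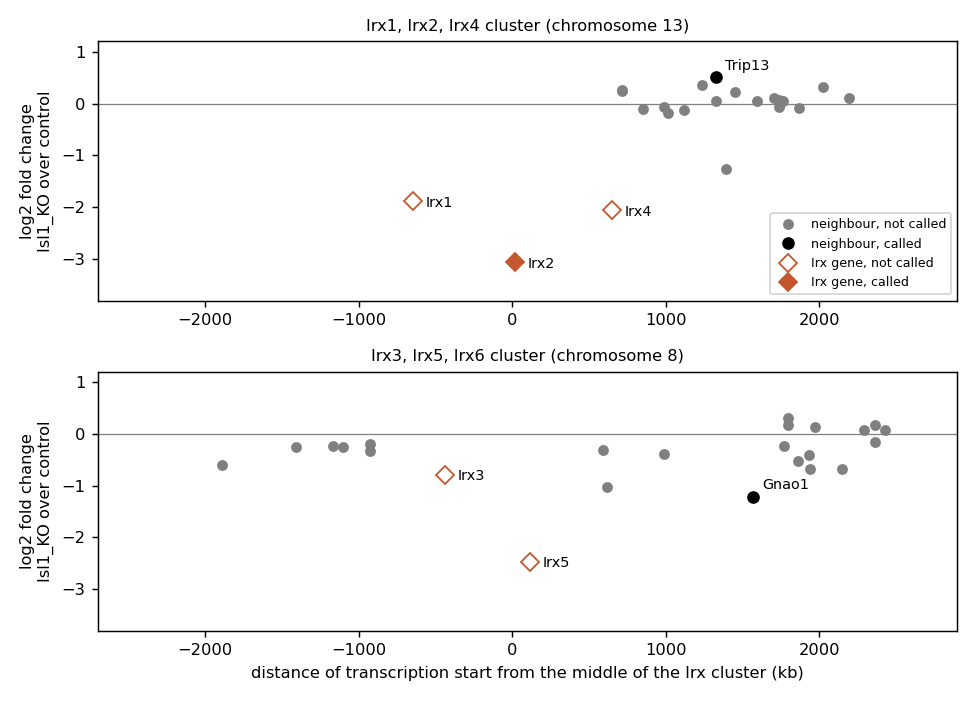
Log2 fold change (Isl1_KO over control) of tested genes against the distance of their start from the middle of each Iroquois cluster, in kb, for chromosome 13 (top) and chromosome 8 (bottom). Diamonds are Irx genes, circles their neighbours within 2 Mb of the cluster ends, and filled diamonds and black circles passed the edgeR test. Irx2 at -3.06 lies below every neighbour on chromosome 13, where the median is 0.06, and Irx5 at -2.47 below every neighbour on chromosome 8, where it is -0.25.

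The promoters of the called Irx2 and of the least changed Irx3 are printed for comparison, with each CG in capitals. Both are from RefSeq on GRCm38.p6, from 250 bases before to 50 after the start; the table used here held Irx2, Irx3 and Irx4.
Irx2 (chr13:72628570-72628869, + strand): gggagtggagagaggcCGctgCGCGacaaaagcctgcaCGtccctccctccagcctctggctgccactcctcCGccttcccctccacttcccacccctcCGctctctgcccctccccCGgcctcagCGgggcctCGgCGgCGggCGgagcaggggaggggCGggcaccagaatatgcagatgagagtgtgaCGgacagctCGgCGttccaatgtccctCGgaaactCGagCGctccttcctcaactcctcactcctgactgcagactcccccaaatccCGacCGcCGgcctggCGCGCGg
Irx3 (chr8:91801605-91801904, - strand): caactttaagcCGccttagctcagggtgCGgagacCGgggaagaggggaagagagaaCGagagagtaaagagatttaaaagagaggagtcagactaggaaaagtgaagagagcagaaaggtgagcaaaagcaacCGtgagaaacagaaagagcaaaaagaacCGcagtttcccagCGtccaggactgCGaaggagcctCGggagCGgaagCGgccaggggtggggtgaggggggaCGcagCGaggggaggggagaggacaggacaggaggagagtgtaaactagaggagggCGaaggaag
The Irx2 promoter held 25 CG and was 69.0% G and C, and that of Irx3 held 14 CG at 56.0%. Both were above the median of 7 CG over 32851 promoters of the same length, at the 81.6 and 63.7 percentile. Irx4 held 31 CG (89.4 percentile). The homeobox core TAAT, read on both strands, was found in Irx4 once and in neither of the printed promoters, against 58.0% of all promoters, TATAAA was found in none of the 3 against 13.6%, and CCAAT was found once, in Irx2, against 37.4%. These letters say only what the windows hold.

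Among the other 12 genes of the TALE class, all tested, Meis1 fell and none rose (1.94% of all tested genes fell). Meis1, a cofactor of Hox and Pbx proteins that is active in second heart field progenitors, was at 45.1 and 43.5 CPM in control and 10.1 and 5.9 in Isl1_KO libraries (log2 fold change -2.45, SE 0.246, edgeR adjusted p = 0.0173). Its relative Meis2 had a log2 fold change of -1.19, which did not pass edgeR (adjusted p = 0.0613) but passed DESeq2 (adjusted p = 8.08e-06). The median of the 12 was -0.06, beside -0.003 over all genes. With either control library left out, no TALE gene passed, Meis1 included.

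Of the 9 factors known to act upstream of Irx genes or to bind Irx proteins, 8 were tested. Among these, 3 fell and none rose (1.94% of all tested genes fell), with a median of -0.29. Those that fell were the cardiac factors Tbx5, with 114 and 123 counts against 13 and 13 (log2 fold change -3.62, edgeR adjusted p = 0.00375), Nkx2-5, with 186 and 181 against 62 and 50 (-2.16, edgeR adjusted p = 0.00703), and Hand2, with 1289 and 1301 against 682 and 410 (-1.71, edgeR adjusted p = 0.0205). Tbx5 and Nkx2-5 are known to act with Irx3 in the conduction system, and Nkx2-5 and Hand2 are needed for ventricular Irx4 expression. Gata4 was at -0.49 (edgeR adjusted p = 0.109), and Gata3, Trps1, Rxra and Gli3 were between -0.10 and 0.24 without a call. With either control library left out, none of the 8 was called.

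Genes known to depend on Irx factors in heart or mesenchyme were mostly rare at day 5. Of 8 such genes, 4 were tested, 1 fell and none rose (1.94% of all tested genes fell). The ventricular light chain gene Myl2 was read 39 and 43 times in control and 1 and 0 times in Isl1_KO libraries (edgeR adjusted p = 0.0128). Myl2 entered the test only through its control libraries. At so low an Isl1_KO level it could be tested only where control was higher. The connexin gene Gja1 was at 275 and 263 CPM against 285 and 414 (log2 fold change 0.38, edgeR adjusted p = 0.28), and the chemokine gene Cxcl12 was at a log2 fold change of -1.71 (edgeR adjusted p = 0.14). Kcnd2, the potassium channel gene repressed by Irx5 in the adult ventricle, Gja5, Kcnip2 and Bmp10 had at most 7 counts in any library and were not tested. With either control library left out, Myl2 was not called and nor was any other gene of the list.

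Chamber genes were set beside Irx4, which marks the ventricle. Of 8 ventricular genes, all tested, 5 fell and none rose (1.94% of all tested genes fell), with a median of -2.94. They were the sarcomere genes Myh7 (log2 fold change -5.76, edgeR adjusted p = 3.79e-05), Myl3 (-3.57, edgeR adjusted p = 0.00369) and again Myl2, the calcium pump regulator Pln (-2.91, edgeR adjusted p = 0.0397) and the cofactor gene Lbh (-2.97, edgeR adjusted p = 0.0144). Pln (18 and 22 against 3 and 4 counts) and Myl2 entered the test only through their control libraries, and the other 3 did not. The ventricular factors Hey2 and Hand1 were at -0.21 and 0.24 without a call (edgeR adjusted p = 0.288 and 0.329). Of 10 atrial and inflow genes, 6 were tested, 3 fell and none rose (beside the same 1.94%), with a median of -2.99. These were the atrial light chains Myl7 (-5.67, edgeR adjusted p = 3.79e-05) and Myl4 (-4.24, edgeR adjusted p = 0.00277) and the pacemaker channel gene Hcn4 (-3.92, edgeR adjusted p = 0.00277). DESeq2 also called Nr2f2 lower (adjusted p = 0.000558). The log2 fold changes of Irx1, Irx3, Irx4 and Irx5 were smaller in size than either median. The ventricular median includes Myl2 and Pln. The atrial one includes Nr2f1 (19 and 27 against 7 and 10 counts), which also entered the test only through its control libraries. As Irx4 entered in the same way and Irx5 also needed a control library, these medians cannot rank the Irx genes against chamber genes. With either control library left out, 2 ventricular and 3 atrial genes were called.

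The tested genes whose pattern over the 4 libraries was nearest to that of Irx2 were Ephb1, Sfrp1 and Rbm24. Nearness was the Euclidean distance between log2 CPM centred on each gene's mean, and it was 0.296, 0.322 and 0.365. Ephb1, an ephrin receptor gene, was at 10.4 and 10.4 CPM in control and 1.84 and 1.21 in Isl1_KO libraries. Sfrp1, a secreted Wnt antagonist gene, was at 44.3 and 45.5 against 7.92 and 5.99 CPM, and Rbm24, a cardiac splicing regulator gene, at 82.4 and 79.0 against 12.4 and 11.5. As these genes were picked for their likeness to Irx2, their values are a description.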

How the data were processed

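Libraries were grouped and numbered by their titles, 2 control and 2 Isl1_KO. According to the methods, the authors aligned reads to mm9 with STAR (introns of 20 to 500000 bases) and used HOMER to count reads over the exons of RefSeq transcripts, ignoring strand. The deposited counts are unadjusted whole reads, and a read shared by transcripts of 1 gene counts for each. The authors computed the deposited RPKM with edgeR from those counts. Tool versions were not given in the sources used here. Deposited columns of the authors' own DESeq2 comparison (mean signal, log2 fold change, standard error, score, p-value, adjusted p-value) were not used. Value columns that matched no sample numbered 0, as did rows without a gene name.

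Of 31507 entries for 20701 symbols, the one with the highest summed count was kept, the first in the file for ties (Irx3, Irx6). The main test was the edgeR 4.0.16 quasi-likelihood F test in R 4.3.3 (TMM, filterByExpr, no covariate, two-sided), with Benjamini-Hochberg adjustment over 12715 genes at 0.05. The step was run on simulated data with the same spread in both groups and with changes only in well-read genes. That run does not cover the unequal spread of the real groups or genes with few counts. Alternatives were DESeq2 1.42.0 (Wald test), other filters, another scaling, all entries, a replicate term and leaving out each library. CPM use TMM-scaled library sizes. Without molecular identifiers, intervals and floors cover counting error only. Gene positions were from GENCODE vM1 on NCBIM37 (97.7% of symbols placed).

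Named genes were the members, Isl1, genes of each list past the threshold (where none passed, the 2 most abundant), called and nearest tested neighbours, and the 3 genes nearest in pattern to a called member above a mean log2 CPM of 2. Other genes named were chosen after their values were seen. The members and lists were chosen with earlier results of these data known. For 1 gene of the target list, values and the list's median are not reported here.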

Additional observations from a re-analysis of the deposited data

How the results depend on the processing

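None of Irx1 to Irx5, and not Isl1, changed direction under the alternatives run, and Irx6 was not among them. For each of these genes both Isl1_KO libraries lay below both control libraries. The alternatives used the same libraries and were therefore not a test of direction. The count of Irx genes called was 1 in edgeR and stayed 1 with DESeq2 size factors, with at least 10 counts in every library (Irx4 and Irx5 then gave no value) and with all transcript entries. It was 2 with no filter, 3 with the replicate block, 3 in DESeq2 and 4 by the study's criteria, where the count over all genes, 311 in edgeR, was 492, 454, 602 and 993. Irx5 passed with no filter (log2 fold change -2.45, edgeR adjusted p = 0.0395) and in DESeq2 (-2.49), and Irx1 in DESeq2 (-1.90). With the replicate block Irx1 was at -1.97 (edgeR adjusted p = 0.0277) and Irx5 at -2.54 (edgeR adjusted p = 0.0362). The numbers mark no shared source in the labels, and the deviations of same-numbered libraries from their group means had r = 0.00154 across 11710 genes, which are not independent replicates. TALE calls were 2 with no filter, with the replicate block and in DESeq2. A minimum of 10 counts in every library leaves out genes near 0 in Isl1_KO cells, and 0 target, 3 ventricular and 1 neighbouring gene were then called. With all entries 1 neighbour was called. Apart from these, the cause was not tested.

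Leaving out 1 library leaves an arm with a lone sample that is assumed to vary like the other group. Without an Isl1_KO library the spread comes from the control pair (coefficient of variation 1.26%), and without a control library from the Isl1_KO pair (16.3%). Calls then ranged from 0 to 5 for Irx genes, 27 to 6350 over all genes, 0 to 8 for TALE genes, 0 to 7 for upstream factors and partners, 0 to 4 for targets, 2 to 6 for ventricular genes, 3 to 6 for atrial genes and 0 to 26 for neighbours. The log2 fold changes ranged from -2.81 to -1.35 for Irx1, -3.33 to -2.85 for Irx2, -1.48 to -0.34 for Irx3, -2.21 to -1.90 for Irx4, -3.58 to -1.88 for Irx5 and -4.75 to -4.08 for Isl1. Depth limits Irx4 and Irx6, with at most 12 counts in a library.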
